A study of Mus musculus with 8 samples.

Results

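The Tribbles genes Trib1, Trib2 and Trib3 and the C/EBP genes Cebpa, Cebpb, Cebpd and Cebpg were examined in mouse pancreatic cancer cells, 7 of the 24421 genes in the deposited count table. They were taken by symbol and were chosen by measured values of the comparison described here, with results of these data known. Their differences between the groups, with the calls and intervals from the fit to all genes, are therefore given as a description and support nothing independently. All 7 were among the 11797 genes that passed a filter on low counts.

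The study compared KPCY cells, pancreatic cancer cells from a male mouse per the labels, which do not list their alleles. In the knockdown group, 4 libraries, the cells carried a stable lentiviral inhibitor of miR-27a-3p. In the scrambled group, 4 libraries, the lentivirus carried a scrambled sequence. Cells of both groups had been selected in puromycin at 2 µg/mL for 7 days and were kept in a medium with 4.5 g/L glucose and 10% fetal bovine serum, and their RNA was collected 24 hours after plating. Each group is 1 stable line, and the replicates, labelled as biological, are samples of that line. Differences between the lines, such as the cells that happened to be transduced, cannot be told apart from the inhibitor. Poly(A) libraries do not carry mature microRNAs, so how far miR-27a was lowered was not measured.

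Tribbles proteins are pseudokinases. They have the fold of a protein kinase with weak or no catalytic activity and act as scaffolds. Trib1 and Trib2 hold C/EBPα in a pocket of the pseudokinase domain, and their tail brings in the ubiquitin ligase COP1, which leads to degradation of C/EBPα by the proteasome. C/EBP factors are leucine zipper proteins that bind DNA as dimers. Cebpa is known for halting proliferation during differentiation, Cebpb and Cebpd for inflammatory and acute-phase transcription, and Cebpg for pairing with other leucine zipper factors without an activation domain of its own. In the pancreas, C/EBPα has been linked to changes of acinar and ductal identity. Libraries of mRNA show none of the degradation step, since protein was not measured here.

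The sequence that the inhibitor was directed against is shown first, since its seed gives the letters that were searched for in the 3′ UTRs. The mature miR-27a-3p and its relative miR-27b-3p (RefSeq, GRCm38.p6, chr8:84208727-84208747 and chr13:63300760-63300780, both on the plus strand) share their seed, bases 2 to 8, in capitals.
miR-27a-3p: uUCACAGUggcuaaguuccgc
miR-27b-3p: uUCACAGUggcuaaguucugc
The longest annotated 3′ UTR of each gene (GENCODE M21, GRCm38) was searched for the 8mer ACTGTGAA, the 7mers ACTGTGA and CTGTGAA, and the 6-letter core CTGTGA on the transcript strand, with the longer matches containing the shorter ones. None of the 7 genes held the 8mer or ACTGTGA. Trib1 and Trib3 each held 1 CTGTGAA, and the UTRs of Trib2, Cebpa, Cebpb and Cebpg held no core at all. Cebpd had 3 cores without a longer match, and Trib1 had 2 beside its 7mer. Among 11046 tested genes with a coding transcript annotated to its end, 29.5% held an 8mer or a 7mer, 16.3% held CTGTGAA and 49.1% held the core. Any of these genes without bases after the stop codon counted as holding none. The Trib3 match, capitals in the line here, began 186 bases after the stop codon in a UTR of 785 bases (chr2:152338008-152338031, minus strand).
Trib3 site: gctctaggtgCTGTGAAcagcaaa
Searching the UTRs of all annotated transcripts gave the same 2 genes with a 7mer. The largest differences described below, those of Trib2 and Cebpa, belong to genes without these letters in their UTR. Trib1 and Trib3, which held a 7mer, were also lower in the knockdown. Whether the letters bear on any of these differences was not tested. A letter match is a description and does not show pairing. Only these letters were searched, and only in 3′ UTRs, so other pairing was not tested.

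Promoter windows from 250 bases before to 50 bases after the start of the gene (RefSeq, GRCm38.p6) were at hand for 5 of the 7 genes, not for Trib1 and Cebpd. They are shown for Trib2 and Cebpa, which differed most between the groups, and for Trib3, the member known as a target of the stress factors ATF4 and CHOP, with motif matches in capitals. The window of Trib2 lies at chr12:15816736-15817035 on the minus strand, that of Cebpa at chr7:35119043-35119342 on the plus strand and that of Trib3 at chr2:152344011-152344310 on the minus strand.
Trib2 promoter: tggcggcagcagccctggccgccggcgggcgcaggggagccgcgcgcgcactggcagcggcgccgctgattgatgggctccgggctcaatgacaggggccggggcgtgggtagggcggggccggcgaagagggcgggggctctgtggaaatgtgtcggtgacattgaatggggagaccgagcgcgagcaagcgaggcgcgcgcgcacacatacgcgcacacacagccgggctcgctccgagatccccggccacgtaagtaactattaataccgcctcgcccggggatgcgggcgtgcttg
Cebpa promoter: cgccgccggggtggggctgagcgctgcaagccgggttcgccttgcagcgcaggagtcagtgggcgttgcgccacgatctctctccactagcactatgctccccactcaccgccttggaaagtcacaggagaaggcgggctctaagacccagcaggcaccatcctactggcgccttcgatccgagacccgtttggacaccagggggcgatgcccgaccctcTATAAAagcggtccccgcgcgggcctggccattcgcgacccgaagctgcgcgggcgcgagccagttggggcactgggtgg
Trib3 promoter: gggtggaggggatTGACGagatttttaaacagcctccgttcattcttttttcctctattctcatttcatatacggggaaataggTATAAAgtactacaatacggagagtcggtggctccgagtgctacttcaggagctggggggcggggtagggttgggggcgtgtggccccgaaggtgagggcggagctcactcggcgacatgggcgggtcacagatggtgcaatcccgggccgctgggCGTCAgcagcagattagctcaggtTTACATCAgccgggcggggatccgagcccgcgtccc
Both strands of each window were searched for 5 motifs. They were the C/EBP-ATF element TGATGNAA, the C/EBP palindrome TTGCGNAA, the cAMP element half-site TGACG, the TATA box TATAAA and the CCAAT box CCAAT, none of which overlapped another in the matches found. Trib3 held the C/EBP-ATF element once, on the opposite strand and starting at base 15 of the transcript, where it reads TTACATCA. That element was in 3.97% of 32851 mouse promoters. Trib3 also held TGACG 2 times, a motif in 20.8% of promoters, and TATAAA once, 166 bases upstream. In Cebpa the only match was TATAAA, starting 30 bases upstream, a motif in 13.6% of promoters. Cebpb, which was not printed, held TGACG 3 times and TATAAA once, and Cebpg held CCAAT 2 times, a motif in 37.4% of promoters. In the Trib2 window, 71.0% G and C, none of the 5 motifs was found, and none of the 5 windows held TTGCGNAA, which was in 0.798% of promoters.

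Library totals ran from 19165513 to 23542275 counts, at which 3 counts, the most that a count of 0 allows, equal 0.129 to 0.155 CPM, the usual library-scaled count, here with edgeR's TMM factors. This limit covers counting error only. Scrambled replicate 2 stood apart, with a chi-square of 5.03 to 5.20 per gene against the other scrambled libraries. All other pairs within a group gave 1.72 to 2.31. Fold changes of the 7 genes are given with and without it where they differ much. Among the genes of the lists this was done only for Atf4. Of the 11797 genes tested, 5645 passed an adjusted p of 0.05 between knockdown and scrambled (edgeR's quasi-likelihood test, Benjamini-Hochberg over all genes tested), 47.9% of them. Lower in the knockdown were 24.1% and higher were 23.8%. The labelled cell type was checked with 8 epithelial markers, which summed to 10830 to 11800 CPM in the scrambled and 11530 to 11850 CPM in the knockdown libraries. Krt8 was the most abundant, at a mean of 3221 CPM. Of the 8 markers, 4 were called higher and 2 lower in the knockdown, so the similar sums do not mean that each marker was unchanged. Sums of the acinar, myeloid, fibroblast and endothelial markers stayed at or below 4.71 CPM in each library, with Cpa1, Ptf1a, Adgre1, Lyz2, Elane, Col1a2, Dcn and Lum at 0 counts throughout. Adipocyte markers summed to 9.47 to 11.9 CPM in the scrambled and 6.58 to 8.45 CPM in the knockdown libraries, nearly all of it Cidec, a lipid droplet protein, with Plin1, Lep and Fabp4 at 0. In bulk RNA, fewer cells with a transcript and less of it per cell cannot be told apart.

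All 7 genes had a lower mean in the knockdown, and 0 were higher at an unadjusted p under 0.05 in edgeR or at an adjusted p in DESeq2. Past the adjusted p of 0.05 were 5 of 7, or 71.4%, all of them lower, where 24.1% of all genes tested were called lower. These 5 were the 3 Tribbles genes, Cebpa and Cebpb, and the 2 that did not pass were Cebpd and Cebpg. The 2 groups of libraries did not overlap for Trib1, Trib2 and Cebpa, and 21.1% of all genes tested had every knockdown library below every scrambled one. The median log2 fold change of the 7 was −0.26, beside 0.00170 over all genes tested. Since the genes were chosen by this comparison, nothing is read from these shares.

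**Figure D1:**
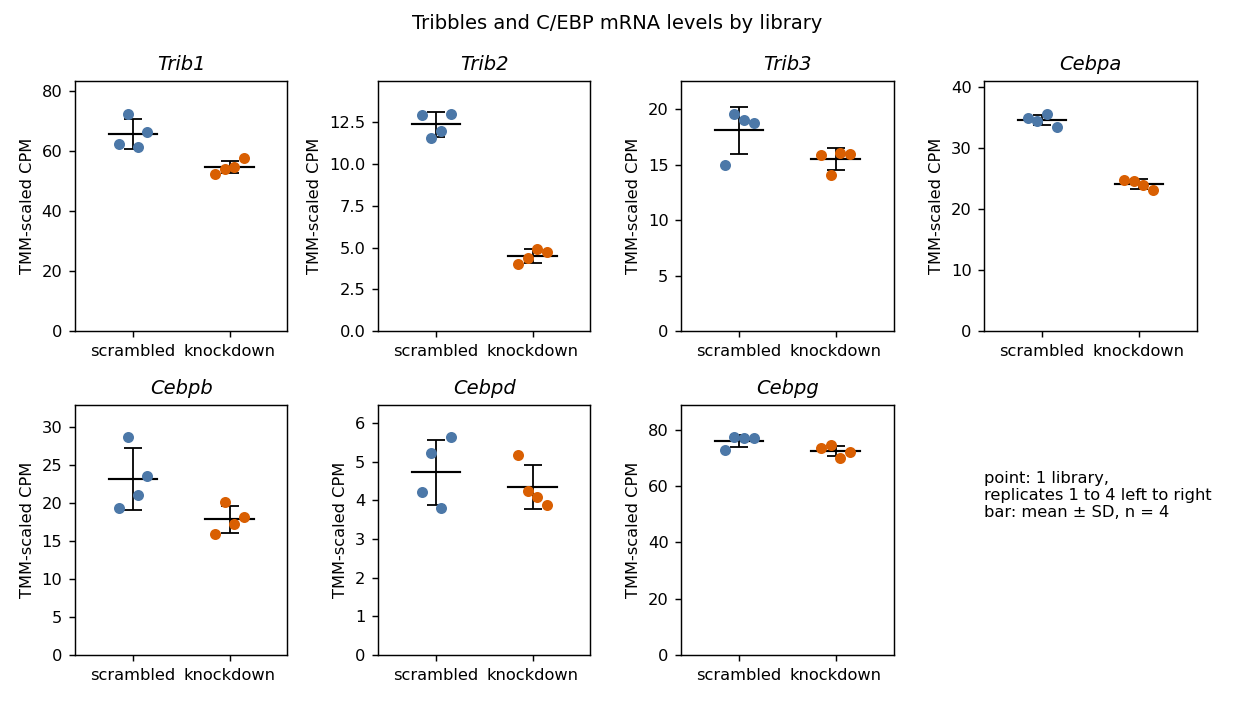
TMM-scaled CPM (vertical axes, each starting at 0) of the 7 genes in the 4 scrambled (blue) and 4 knockdown (orange) libraries, 1 point per library and bars for the mean ± SD. The points of Trib2 and Cebpa are separated widest in relation to their spread, with Trib2 at 11.5 to 13.0 against 3.99 to 4.90 CPM, and the points of Cebpd and Cebpg are mixed.

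Trib2, the Tribbles member first known from leukaemia in which it lowers C/EBPα, differed most. Its levels were 13.0, 11.5, 12.0 and 13.0 CPM in scrambled replicates 1 to 4 and 3.99, 4.40, 4.90 and 4.74 CPM in knockdown replicates 1 to 4. Every knockdown library was below every scrambled library, with a wide gap between them. The mean was 12.4 ± 0.738 CPM against 4.51 ± 0.403 CPM (SD, n = 4), a log2 fold change of −1.45 (SE 0.0958). This is 2.74-fold lower, with a 95% interval of 2.38 to 3.14. The counts behind it were 229 to 279 per scrambled and 78 to 104 per knockdown library. Of all genes tested, 83, or 0.704%, had a log2 fold change as low as that of Trib2 or lower. The gene lies at chr12:15791727-15816922 on the minus strand and shares no exon bases with another annotated gene.

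Trib1, which targets C/EBPα in liver and in myeloid cells, had the highest level per kilobase of the 3 Tribbles genes. It stood at 62.5, 72.5, 61.2 and 66.5 CPM in scrambled replicates 1 to 4 and at 52.4, 54.2, 54.6 and 57.5 CPM in the knockdown. The groups did not overlap, but the highest knockdown library came near the lowest scrambled one. The mean was 65.7 ± 5.05 against 54.7 ± 2.13 CPM (SD, n = 4), 1.199-fold lower with a 95% interval of 1.12 to 1.28. Its log2 fold change of −0.26 (SE 0.0479) became −0.21 without scrambled replicate 2, its highest library. Trib1 is at chr15:59648350-59657099 on the plus strand, with no exon overlap.

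Trib3, a stress-induced member that binds the kinase AKT, was at 15, 19.6, 18.99 and 18.7 CPM in the scrambled and at 15.9, 14.03, 16.1 and 16.0 CPM in the knockdown replicates. The groups overlapped, since scrambled replicate 1 was below 3 of the 4 knockdown libraries. The mean was 18.1 ± 2.08 against 15.5 ± 0.972 CPM (SD, n = 4), a log2 fold change of −0.22 (SE 0.0794). Trib3 no longer passed the adjusted p of 0.05 in 3 refits that left out a library. The log2 fold change was −0.18 without knockdown replicate 2, −0.20 without scrambled replicate 3 and −0.21 without scrambled replicate 4. Without scrambled replicate 2 it was −0.18 and passed. Trib3 lies at chr2:152337422-152344032 on the minus strand, without exon overlap.

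Cebpa differed most among the C/EBP genes and had tight replicates. It stood at 34.9, 34.4, 35.7 and 33.6 CPM in scrambled replicates 1 to 4 and at 24.8, 24.6, 24.0 and 23.2 CPM in the knockdown. Both groups held within a narrow range and were clearly apart. The mean was 34.6 ± 0.890 against 24.1 ± 0.747 CPM (SD, n = 4), a log2 fold change of −0.52 (SE 0.0501). That is 1.44-fold lower, with a 95% interval of 1.34 to 1.54, and 470 genes, or 3.98% of those tested, were as low or lower. Cebpa is a gene of 1 exon block at chr7:35119293-35121928 on the plus strand. Its exon shares 51 bases with an antisense transcript, Gm45091, and the strand setting of the counting is not given in the sources used here.

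Cebpb, which responds to interleukin-6 and to stress, was at 19.3, 28.7, 21.1 and 23.6 CPM in the scrambled and at 15.9, 20.1, 17.3 and 18.2 CPM in the knockdown replicates. The groups overlapped in that knockdown replicate 2 was above scrambled replicate 1. The mean was 23.2 ± 4.06 against 17.8 ± 1.77 CPM (SD, n = 4), 1.29-fold lower with a 95% interval of 1.13 to 1.48. The log2 fold change was −0.37 (SE 0.0940). Without scrambled replicate 2, which had the highest value, it was −0.26. The single exon of Cebpb, at chr2:167688915-167690418 on the plus strand, shares 312 bases with Tmem189 on the opposite strand. Tmem189 went the other way, from 33.0 ± 0.734 to 36.4 ± 1.21 CPM (edgeR, adjusted p = 0.0151), and without the strand setting its reads cannot be told apart from those of Cebpb in the shared bases.

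Cebpd, an early gene of the acute-phase response, had the lowest level per kilobase of the 4 C/EBP genes. It stood at 4.22, 5.24, 3.82 and 5.63 CPM in the scrambled and at 5.17, 4.25, 4.09 and 3.88 CPM in the knockdown replicates. The values were mixed between the groups. The mean was 4.73 ± 0.849 against 4.34 ± 0.571 CPM (SD, n = 4), and the 95% interval of its log2 fold change of −0.12 ran from −0.41 to 0.17. The interval spans 0, and the value rested on single libraries. It was −0.0216 without scrambled replicate 4, −0.0641 without knockdown replicate 4 and −0.0647 without scrambled replicate 2. It was −0.21 without scrambled replicate 3 and also without knockdown replicate 1. Cebpd, at chr16:15887286-15891031 on the plus strand, shares 562 exon bases with Spidr on the opposite strand, and Spidr was lower in the knockdown (35.2 ± 3.51 against 31.2 ± 0.853 CPM, edgeR adjusted p = 0.0174).

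Cebpg, a dimer partner of other leucine zipper factors, was at 72.9, 77.4, 77.2 and 77.2 CPM in the scrambled and at 73.5, 74.5, 70.2 and 72.2 CPM in the knockdown replicates. Scrambled replicate 1 was the only scrambled library among the knockdown values. The mean was 76.2 ± 2.202 against 72.6 ± 1.86 CPM (SD, n = 4), with a log2 fold change of −0.07 and a 95% interval from −0.14 to 0.00400. Cebpg lies at chr7:35046422-35056573 on the minus strand, beside Cebpa, with no tested gene between them.

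**Figure D2:**
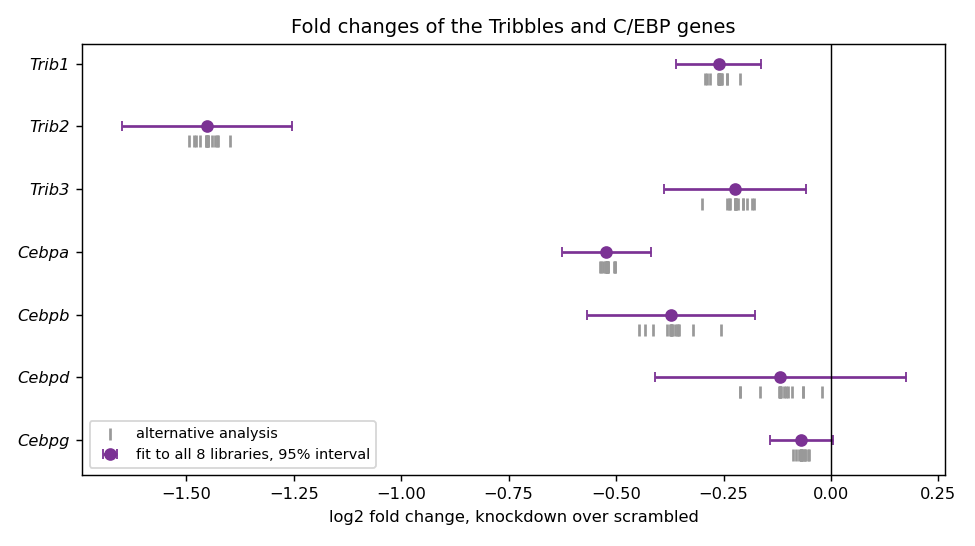
Log2 fold change of knockdown over scrambled (horizontal axis) for the 7 genes, with points and 95% intervals from the fit to all 8 libraries and grey ticks for the 15 alternative analyses, among them the refits without 1 library. Trib2 at −1.45 lies apart from the others, whose values run from −0.52 for Cebpa to −0.07 for Cebpg, and the intervals of Cebpd and Cebpg reach past 0.

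Levels of different genes were compared per kilobase of the gene's merged exons. In the scrambled libraries the order of the levels in CPM per kilobase was Cebpb at 15.4 ± 2.70, Cebpg at 13.6 ± 0.392, Cebpa at 13.1 ± 0.338, Trib1 at 10.5 ± 0.809, Trib3 at 8.51 ± 0.981, Trib2 at 2.85 ± 0.170 and Cebpd at 1.26 ± 0.227 (SD, n = 4). The ranges of Cebpb, Cebpg and Cebpa overlapped, while those of the later neighbours in the order did not. In the knockdown the order in the same unit was Cebpg at 12.9 ± 0.330, Cebpb at 11.9 ± 1.18, Cebpa at 9.16 ± 0.283, Trib1 at 8.75 ± 0.340, Trib3 at 7.29 ± 0.458, Cebpd at 1.16 ± 0.152 and Trib2 at 1.04 ± 0.0930. There the ranges overlapped between Cebpg and Cebpb, between Cebpa and Trib1, and between Cebpd and Trib2. Trib2, above Cebpd in every scrambled library, was thus at the level of Cebpd in the knockdown. The order depends on the length used. With the longest transcript of each gene in place of the merged exons, Trib1 came to 15.2 CPM per kilobase in the scrambled and 12.6 in the knockdown libraries, above Cebpa at 13.2 and 9.19. Cebpg came to 16.2 and 15.4, above Cebpb at 15.4 and 11.9, and Trib1 was also above Cebpb in the knockdown. The family sums, shares and ratios given next use the merged exons.

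**Figure D3:**
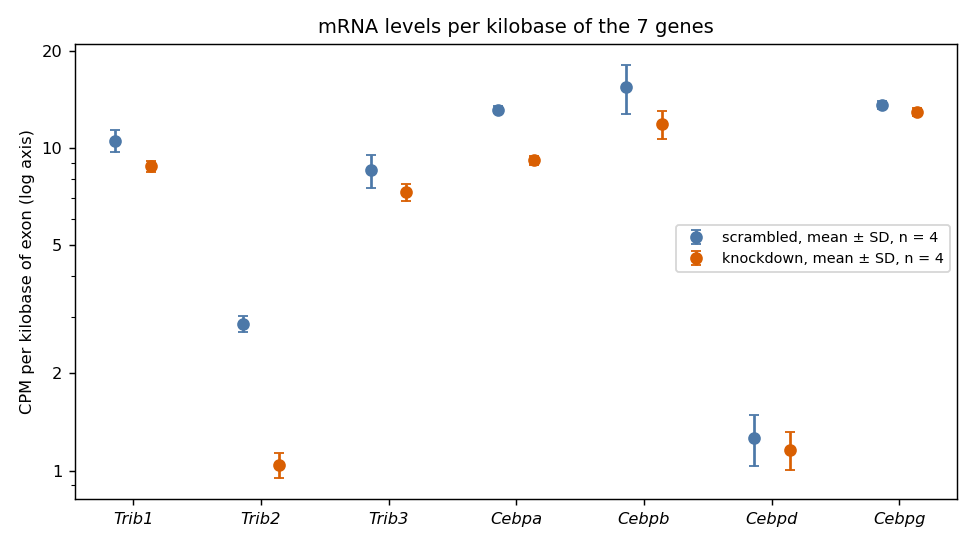
Level in CPM per kilobase of merged exon (log axis) of the 7 genes in scrambled (blue) and knockdown (orange) libraries, mean ± SD of 4. Trib2 moves from 2.85 to 1.04, beside Cebpd at 1.26 and 1.16, while the other 5 genes stay between 7.29 and 15.4.

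Within the Tribbles family the summed level per kilobase was 21.9 ± 1.46 CPM in the scrambled and 17.1 ± 0.680 CPM in the knockdown libraries (SD, n = 4), 78.1% of the scrambled level. Trib2 made up 13.1 ± 1.48% of it in the scrambled and 6.09 ± 0.423% in the knockdown. Trib1 gave 48.1 ± 1.98% and 51.3 ± 1.52%, and Trib3 gave 38.8 ± 2.65% and 42.7 ± 1.70%. The family was thus mostly Trib1 and Trib3 in both groups, and the smallest share shrank. The ratio of Trib1 to Trib2 per kilobase was 3.35, 4.36, 3.55 and 3.55 in scrambled replicates 1 to 4 and 9.11, 8.54, 7.73 and 8.42 in the knockdown.

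The summed C/EBP level per kilobase was 43.4 ± 2.98 CPM in the scrambled and 35.1 ± 1.35 CPM in the knockdown libraries (SD, n = 4), 81.0% of the scrambled level. Cebpa made up 30.4 ± 2.47% and 26.1 ± 1.06% of it, and Cebpg 31.3 ± 1.53% and 36.8 ± 0.928%. Cebpb gave 35.3 ± 3.70% and 33.8 ± 2.30%, and Cebpd 2.90 ± 0.430% and 3.31 ± 0.475%. Cebpg thus made up a larger share in every knockdown library than in any scrambled one. Its own mean was not higher, at 13.6 CPM per kilobase in the scrambled and 12.9 in the knockdown, while Cebpa and Cebpb were lower. The ratio of Cebpg to Cebpa per kilobase was 0.979, 1.06, 1.02 and 1.08 in scrambled replicates 1 to 4 and 1.39, 1.42, 1.38 and 1.46 in the knockdown. The ratio of Trib1 to Cebpa was 0.801 ± 0.0751 in the scrambled and 0.958 ± 0.0671 in the knockdown, and the values of the 2 groups were nearly touching, at 0.889 in scrambled replicate 2 and 0.891 in knockdown replicate 1.

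The 7 genes lie on 5 chromosomes, and only Cebpa and Cebpg are within 1 Mb of each other. Among tested genes within 1 Mb of Trib2 there were only 2, 1 of them called lower, Lpin1 at a log2 fold change of −0.48, and 1 called higher, at 0.20. Over all genes tested, 24.1% were called lower and 23.8% higher. Around Cebpa, 9 of 18 genes were called lower and 3 higher, with a median of −0.11. The overlapping window of Cebpg had 10 of 18 lower, Cebpa among them, and 3 higher, with a median of −0.13. Around Cebpd, 5 of 10 were lower and 3 higher, with a median of −0.11. Around Trib1, 3 of 9 were lower, and around Trib3, 5 of 23 were lower and 4 higher. Around Cebpb, 3 of 22 were lower and 8 higher, with a median of 0.13, so that Cebpb differed in direction from most called genes near it. The medians of the other tested genes on these chromosomes ran from −0.0665 on chromosome 16 to 0.0960 on chromosome 12.

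The genes whose pattern over the 8 libraries was most like each member were found by the smallest root mean square difference of log2(CPM + 0.5), with each gene's scrambled mean subtracted, over 11252 genes. For Trib2 this was Dnaja4, a co-chaperone, with a difference of 0.0713 on the log2 scale and means of 14.96 and 5.67 CPM. For Cebpa it was Tonsl, a replication-coupled repair factor, at 0.0444 and with 45.8 and 32.7 CPM. The others were Pcf11 for Trib1 (0.0335), Wdr37 for Trib3 (0.0519), Hmgcs1 of cholesterol synthesis for Cebpb (0.0883), Zfp653 for Cebpd (0.0714) and the kinase Jak1 for Cebpg (0.0147). The next most alike gene was at 0.0371 for Trib1, 0.0573 for Trib3, 0.0457 for Cebpa and 0.0988 for Cebpb. It was at 0.0868 for Cebpd and 0.0167 for Cebpg. For Trib2 it was at 0.0975, beside 0.0713 for Dnaja4, a wider step than for the other members.

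Outside the 7 genes, 8 lists of 114 genes around Tribbles and C/EBP function were counted, of which 88 genes were tested. In all, 27 rose, 29 fell and 32 did not pass (edgeR, adjusted p of 0.05 over all genes tested), and the median log2 fold change was −0.0136. Over all genes tested, 47.9% were called, 23.8% higher and 24.1% lower, which are smaller shares than among these 88. The lists are described by their counts and medians, and none was tested as a set.

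Of the 8 ubiquitin ligase partners of Tribbles, 5 rose, 0 fell and 3 did not pass in edgeR, with a median log2 fold change of 0.21. This is 62.5% called, beside 47.9% of all genes tested called and 23.8% called higher. DESeq2 and limma-voom also gave 5 and 0, and 0 were lower at an unadjusted p under 0.05 in edgeR. Cop1, the ligase that Trib1 and Trib2 recruit, listed under its older symbol Rfwd2, was at 48.2, 48.8, 50.9 and 49.1 CPM in the scrambled and at 57.0, 56.3, 60.1 and 59.2 CPM in the knockdown replicates. The groups did not overlap, and the log2 fold change was 0.24 (SE 0.0396, edgeR adjusted p = 3.11e-05). Cul4a, which like Cul4b encodes a cullin of the DDB1 ligases, rose from 112 ± 3.66 to 133 ± 1.71 CPM (log2 fold change 0.25, adjusted p = 4.35e-07). Ddb1, Dda1 and Stk40, a Tribbles-like pseudokinase that also binds COP1, rose by 0.20, 0.23 and 0.22 on the log2 scale. Det1, Cul4b and Rbx1 had log2 fold changes of −0.0827, 0.0299 and −0.0586 and did not pass. Cul4a and Dda1 lie on chromosome 8, where the median of 646 tested genes was 0.207. Among the 6 list genes on other chromosomes, 3 rose and 0 fell, with a median of 0.114. These 3 were Cop1 on chromosome 1, Ddb1 on chromosome 19 and Stk40 on chromosome 4. The medians of all tested genes there were 0.0466, 0.11 and −0.0504.

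Kinase partners and reported substrates of Tribbles did not share a direction. Of 11 genes, 2 rose, 3 fell and 6 did not pass, 45.5% called beside 47.9% of all genes tested, and the median log2 fold change was −0.0244. Map2k1, a kinase of the ERK cascade that Tribbles proteins bind, was at 149 ± 4.78 and 144 ± 3.58 CPM (SD, n = 4, adjusted p = 0.201). Akt1, the kinase that Trib3 binds, rose slightly from 459 ± 10.1 to 499 ± 2.84 CPM (log2 fold change 0.12, adjusted p = 1.01e-04). Cdc25c, a phosphatase at mitotic entry, fell from 37.3 ± 0.986 to 31.2 ± 1.01 CPM (log2 fold change −0.26, adjusted p = 1.01e-04). Acaca, the acetyl-CoA carboxylase that Trib3 leads to degradation in fat, had a log2 fold change of −0.19 and also fell.

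Among the other C/EBP genes and leucine zipper partners, 7 of 11 were tested, and 1 rose, 2 fell and 4 did not pass, 42.9% called beside 47.9% of all genes tested. Cebpe, the granulocyte member, had 0 counts in all 8 libraries. Ddit3, which encodes CHOP, a C/EBP partner that blocks DNA binding at C/EBP sites, was at 6.16 ± 0.414 and 5.998 ± 0.283 CPM (SD, n = 4, edgeR adjusted p = 0.758). Atf4, its activator and the partner of Cebpg, fell from 292 ± 18.0 to 268 ± 4.68 CPM (log2 fold change −0.12, adjusted p = 0.00404), and the value was −0.0761 without scrambled replicate 2. Nfil3, a repressor of the same zipper class, fell from 10.8 ± 1.54 to 6.64 ± 0.398 CPM (log2 fold change −0.69, adjusted p = 8.14e-06). Dbp, a clock-driven activator, rose from 5.77 ± 0.694 to 7.22 ± 0.801 CPM (log2 fold change 0.32, adjusted p = 0.0219). That call was lost without knockdown replicate 3, scrambled replicate 1 or scrambled replicate 3, and the adjusted p ranged from 0.00824 to 0.0975 over 15 alternatives.

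For the stress pathway that feeds Trib3, Ddit3 and Cebpb, the mRNA of its kinases and targets was counted. Activity of the kinases and protein levels were not measured. Of 7 eIF2α kinases, phosphatase subunits and their substrate, 3 rose, 0 fell and 4 did not pass, led by Eif2ak1, the haem-regulated kinase, from 62.8 ± 2.10 to 72.6 ± 4.29 CPM (log2 fold change 0.21, edgeR adjusted p = 2.85e-04). Eif2ak1 lies on chromosome 5, where the median of 761 tested genes was 0.137. The share called in this list was 42.9%, beside 47.9% of all genes tested. In edgeR 0 were lower at an unadjusted p under 0.05, and DESeq2 called 0 lower. Without scrambled replicate 2, edgeR called 3 higher and 1 lower. Of 30 ATF4 and CHOP targets other than Trib3, 8 rose, 14 fell and 8 did not pass, 73.3% called beside 47.9% of all genes tested, with a median log2 fold change of −0.0379. Slc7a11, the cystine importer, had the largest fall, −0.87 on the log2 scale (adjusted p = 1.50e-12), and Nupr1, a stress-induced chromatin factor, had the largest rise, from 16.5 ± 2.33 to 22.7 ± 0.732 CPM (adjusted p = 4.12e-05). Trib3, at −0.22, was therefore within the spread of the list, in which the targets moved in both directions.

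Targets of C/EBP factors also split. Of 20 inflammatory and acute-phase targets only 6 were tested, and 8 had 0 counts in all libraries. Of the 6, 3 fell, 1 rose and 2 did not pass, 66.7% called beside 47.9% of all genes tested. Cxcl1, a neutrophil chemokine, fell from 1.79 ± 0.360 to 0.688 ± 0.291 CPM (log2 fold change −1.35, edgeR adjusted p = 2.55e-04). Il1rn, the interleukin-1 receptor antagonist, was at 571 ± 23.6 and 432 ± 6.86 CPM and fell, while Ptgs2, the inducible cyclooxygenase, rose by 0.81 on the log2 scale (adjusted p = 6.83e-10). Of 15 adipogenic and lipid targets, 8 were tested, of which 3 rose, 4 fell and 1 did not pass, 87.5% called beside the same 47.9%. Pparg, the nuclear receptor that C/EBPα pairs with in fat cells, fell from 153 ± 3.51 to 132 ± 3.22 CPM (log2 fold change −0.21, adjusted p = 2.78e-06). Insig1, which retains the sterol sensor in the endoplasmic reticulum, had the largest fall, −0.36 on the log2 scale (adjusted p = 1.19e-06). Lpl, lipoprotein lipase, had the largest rise, 1.81 on the log2 scale (adjusted p = 2.03e-11), and lies on chromosome 8.

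Among genes of the pathways known to raise Cebpb and Cebpd, with the STAT3 target Socs3 included, 11 of 12 were tested. Of these, 4 rose, 3 fell and 4 did not pass, 63.6% called beside 47.9% of all genes tested. The receptor subunit Il6st rose from 66.0 ± 4.96 to 76.3 ± 2.72 CPM (log2 fold change 0.21, edgeR adjusted p = 6.25e-04). Its partner Lifr, the leukaemia inhibitory factor receptor, fell from 42.0 ± 3.77 to 23.7 ± 1.30 CPM (log2 fold change −0.83, adjusted p = 2.13e-10). Stat3 and its target Socs3 had log2 fold changes of 0.0081 and 0.0006 and did not pass, beside −0.37 for Cebpb and −0.12 for Cebpd.

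**Figure D4:**
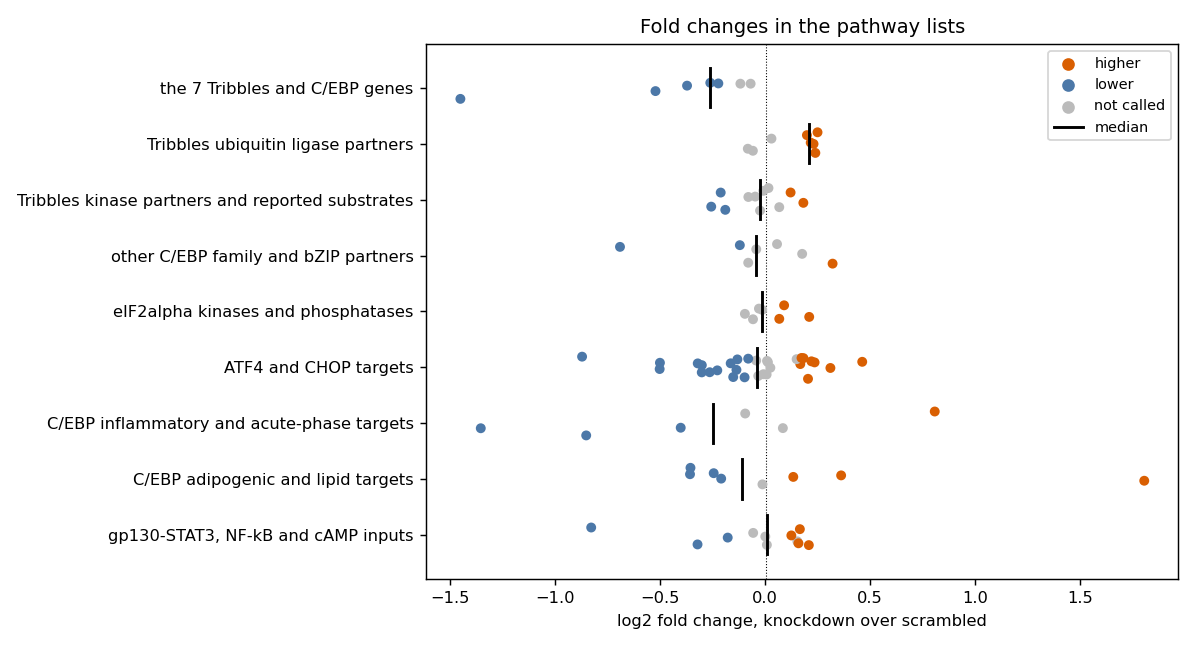
Log2 fold change of knockdown over scrambled (horizontal axis) of each tested gene, 1 point per gene, for the 7 Tribbles and C/EBP genes and the 8 lists, coloured by the call at an adjusted p of 0.05, with black bars for the medians and a dotted line for the median of all genes tested. The ligase partners have 5 points called higher and 0 lower, the 7 genes have 5 lower and 0 higher, and the 30 ATF4 and CHOP targets lie on both sides of 0.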

How the data were processed

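Poly(A) RNA of 8 libraries was read as paired ends of 59 bases, per the labels' protocols. The authors deposited raw read counts per gene symbol. The submitters' processing notes name bcl2fastq 2.20, Bowtie, STAR, DESeq2 1.36.0, R 4.2.1 and mm10, without roles. What counted the reads, and on which annotation and strand, is not given in the sources used here.

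The counts were fitted in edgeR 4.0.16 under R 4.3.3 (genes kept by filterByExpr with a minimum count of 10 and total of 15, TMM, glmQLFit and glmQLFTest on group, Benjamini-Hochberg adjustment over 11797 genes), after a test on simulated data. P-values measure the spread between samples of 1 line per group. The 7 genes and 8 lists were chosen with earlier results of these data known. The 1 Mb windows, chromosome medians and promoter motifs were added after seeing the data. Named were the 7 genes, the called gene with the largest rise and fall in each list, Cop1, Atf4, Ddit3, Cebpe, Map2k1, Akt1 and Stk40, and the most alike genes. A gene that this rule takes is not reported here. Other list genes and exon-sharing neighbours were picked after their values were seen. Alternatives were other scalings, filters, a replicate block, DESeq2 1.42.0, limma-voom (limma 3.58.1) and leaving out each library.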

Additional observations from a re-analysis of the deposited data

Results flagged for a closer look

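In 54 groups of 4 libraries over 27 genes, 6 had 1 library far from the other 3 in relation to the range of the group, where chance gives about 1 in 20 groups. Among the Tribbles and C/EBP genes, Trib3 was at 14 CPM in knockdown replicate 2, below 15.9 to 16.1 CPM in the others, and Cebpg was at 72.9 CPM in scrambled replicate 1, below 77.2 to 77.4 CPM. Atf4 was at 318 CPM in scrambled replicate 2, above 279 to 285 CPM. Map2k1 was at 149 CPM in knockdown replicate 2, above 141 to 142 CPM. In knockdown replicate 3, Cdc25c was at 29.7 CPM, below 31.6 to 31.9 CPM, and Slc7a11 was at 39.0 CPM, below 41.8 to 42.2 CPM.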

How the results depend on the processing

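Over 15 alternatives, 8 of them leaving out 1 library, the number of genes called ranged from 5116 to 6004, beside 5645. Of the 7 Tribbles and C/EBP genes, 5 were called in each alternative except without knockdown replicate 2, scrambled replicate 3 or scrambled replicate 4, where 4 were, Trib3 being lost. The log2 fold change ranged from −1.49 to −1.40 for Trib2, from −0.54 to −0.50 for Cebpa, from −0.29 to −0.21 for Trib1, from −0.45 to −0.26 for Cebpb, from −0.21 to −0.0216 for Cebpd and from −0.0889 to −0.0501 for Cebpg. Of 405 recomputed fold changes of 27 named genes, 399 kept their direction and side of the threshold, 6 lost the call (Trib3 and Dbp, 3 each) and 0 reversed. With the replicate number as a block, 5533 genes and 5 of the 7 were called. Replicate numbers did not pair the libraries, since same-numbered libraries correlated at −0.0309 to 0.0114 and 0 of 4 correlated best with their own number. Upper-quartile scaling called 3188 genes higher and 2478 lower. Called eIF2α genes numbered 2 to 4 without 1 library, and 3 otherwise. The 4 were called without scrambled replicate 2, with 3 higher and 1 lower. Cebpd, at 3.82 to 5.63 CPM, had the widest interval of the 7 genes.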
